A study of Mus musculus with 6 samples.

Results

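The genes described here are Krt19, Krt7, Krt23, Epcam, Sox9, Spp1, Cldn7, Muc1 and Cftr, a set of 9 that marks cholangiocytes, the epithelial cells lining the bile ducts, and liver progenitor cells. They were chosen by symbol among the 43346 rows of a gene count table, each symbol matched a single row, and all 9 passed the filter on low counts that left 18359 genes. RNA was sequenced from 6 mouse liver tumours induced with diethylnitrosamine (DEN), a carcinogen that alkylates DNA in hepatocytes. All tumours came from SULF2-overexpressing mice, named Sulf2-TTR in the titles. SULF2 is an extracellular sulfatase that trims heparan sulfate. The groups were 3 tumours with wild-type Gli1 (WT) and 3 with Gli1 knocked out (KO). GLI1 is a transcriptional activator at the end of the Hedgehog pathway. The labels give neither the ages of the mice, nor the promoter or cell type of the transgene, nor whether the 6 tumours are from different mice. The p-values therefore measure the spread between these samples, which may in part be technical. If any tumours shared a mouse, they would not be independent, and the p-values could be too small.

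Cholangiocytes and hepatocytes arise from a common fetal precursor, and SOX9 is an early factor of the biliary branch. Keratins 19 and 7 form intermediate filaments in ducts but not in healthy hepatocytes, which rely on keratins 8 and 18. In injured liver, ductular cells multiply at the portal edge, and hepatocytes and tumour cells can switch on part of the same programme. A biliary transcript in a bulk tumour may therefore come from ducts caught in the sample or from the tumour cells, and in bulk RNA fewer cells of a type and less RNA per cell cannot be told apart.

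Promoter sequences are shown for 5 genes, because Epcam, Muc1 and Cftr ranked the tumours alike while Krt23 and Spp1 ranked them otherwise. Each stretch is 150 bases, written 5′ to 3′ on the gene's own strand from RefSeq (GRCm38.p6) and ending before the start of transcription. Capitals mark matches to any of the motifs named after them.
Epcam (chr17:87635829-87635978, plus strand): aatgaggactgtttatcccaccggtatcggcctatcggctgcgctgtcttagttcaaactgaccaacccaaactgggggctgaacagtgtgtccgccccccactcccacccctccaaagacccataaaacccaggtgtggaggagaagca
Muc1 (chr3:89228906-89229055, plus strand): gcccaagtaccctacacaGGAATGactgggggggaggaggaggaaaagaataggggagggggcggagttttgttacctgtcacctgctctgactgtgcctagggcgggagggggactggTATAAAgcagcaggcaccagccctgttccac
Cftr (chr6:18170537-18170686, plus strand): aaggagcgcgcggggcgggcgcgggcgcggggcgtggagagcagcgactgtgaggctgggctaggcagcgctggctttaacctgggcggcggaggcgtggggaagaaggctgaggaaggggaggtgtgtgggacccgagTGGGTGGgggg
Krt23 (chr11:99493138-99493287, minus strand): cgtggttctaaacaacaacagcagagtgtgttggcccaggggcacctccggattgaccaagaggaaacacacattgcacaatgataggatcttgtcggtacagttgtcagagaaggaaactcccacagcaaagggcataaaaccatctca
Spp1 (chr5:104434961-104435110, plus strand): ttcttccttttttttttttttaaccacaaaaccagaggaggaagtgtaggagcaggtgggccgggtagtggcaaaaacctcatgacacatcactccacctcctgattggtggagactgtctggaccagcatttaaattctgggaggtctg

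The RefSeq table held 9 promoters of 7 of the 9 genes, with none matched for Krt19 and Sox9. The 250 bases before each start were searched on both strands. The GLI consensus GACCACCCA was in none of the 9 promoters and in 0.225% of all 32851 promoters in the table. Its core CCACCCA, which the consensus contains, was matched in Cftr alone, on the minus strand 11 bases before the start, against 8.11% of all promoters. GGAATG, bound by TEAD factors, was found in Muc1 and Cldn7 (12.6% of all), TATAAA in Muc1 and Spp1 (12.4%), and the SOX core ATTGTT in none of the 9 promoters (9.42%). The TATAAA match of Spp1 lies 211 bases before the start, outside the stretch printed. The AP-1 site TGAGTCA was in none of the 9 (4.46%). The Cftr promoter was the richest in CpG, with 30 CpG and 76.4% GC in 250 bases, and the first Spp1 promoter had 3 CpG and 43.6% GC. These are letter matches and not measured binding.

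Total counts ran from 75205624 to 132979502 reads per library. The first principal component (42.7% of the variance) set WT replicate 3 and KO replicate 1 apart from the other 4 libraries. Gli1 itself had 10, 20 and 7 reads in the WT tumours and 4, 3 and 3 in the KO tumours, in the direction of the labels (log2 fold change -2.24 ± 0.65, SE, edgeR FDR 1.00). Sulf2 varied within both genotypes, with 6100, 875 and 474 reads in the WT tumours and 17313, 350 and 843 in the KO tumours (log2 fold change 0.93 ± 1.56, edgeR FDR 1.00). Albumin (Alb) took 12.6 to 15.1% of the counts of every library.

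On the deposited RPKM scale, which divides by gene length and so allows levels to be compared between genes, the members differed in median level. Spp1 had a median of 132 RPKM over the 6 libraries, Krt23 had 5.95 and Sox9 had 1.77. Epcam followed at 0.395, Krt19 at 0.263, Muc1 at 0.260, Cldn7 at 0.204, Krt7 at 0.0786 and Cftr at 0.0349 RPKM. The hepatocyte keratins Krt8 and Krt18 had medians of 116 and 121 RPKM. The order among Krt19, Muc1 and Cldn7 is not firm, since each varied more than 8-fold between libraries. Krt23 was below Sox9 in WT replicate 1 (1.04 against 1.80 RPKM) and WT replicate 2 (0.335 against 1.75), so their order is not firm either. The length used for Krt7 was 7055 bases, and its deposited 5′ end lies 1360 bases before the RefSeq start.

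The KO and WT genotypes gave no call for any member with edgeR's quasi-likelihood test. Of the 9 genes, 0 passed FDR 0.05, as did 0% of all 18359 genes, and the smallest FDR among the members was 1.00. By DESeq2, 0 members and 0.317% of the genes given an adjusted p were called. At an unadjusted p under 0.05 there were 0 members by edgeR, against 3.62% of all genes, and 1 member, Krt23, by DESeq2 (3.88% of all genes), by limma voom (3.44%) and by edgeR with a block for the replicate number (2.73%). The log2 fold changes (KO minus WT) were above 0 for 3 members and below 0 for 6, where 48.2% of all genes were above 0. Their median was -0.33, beside -0.01 over all genes tested. The genotypes did not overlap for 1 member, Krt23, with all KO above all WT. Of all genes, 8.11% did not overlap and 4.15% had all KO above all WT.

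**Figure D1:**
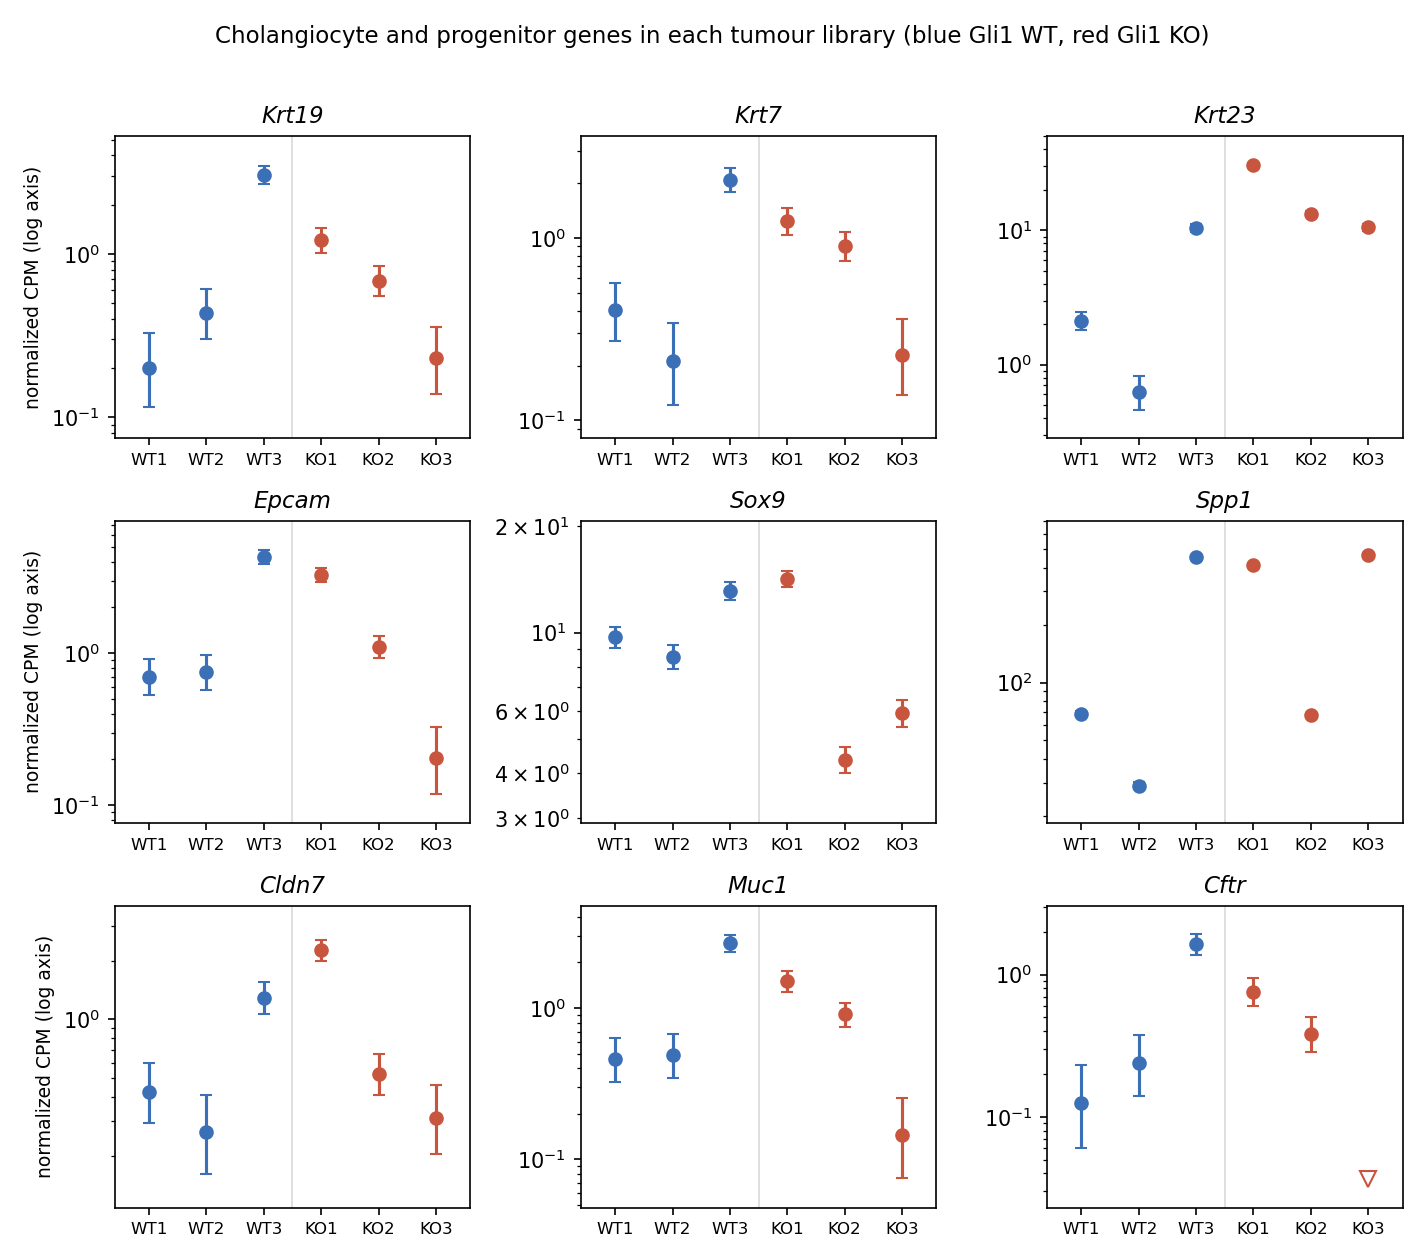
Normalized CPM (log axes) of each of the 9 genes in each library, WT replicates 1 to 3 in blue and KO replicates 1 to 3 in red. Bars are 95% Poisson intervals of the read count (counting error only), and the open triangle marks the level of 3 reads for Cftr in KO replicate 3, which had 0 reads. WT replicate 3 and KO replicate 1 are the highest libraries for 7 of the 9 genes.

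The simple-epithelium keratins Krt19 and Krt7 were low in every tumour and lowest in WT replicates 1 and 2 and KO replicate 3, without a genotype call. Krt19 (ENSMUSG00000020911, GRCm38 chromosome 11, 100140810 to 100148665, minus strand), the classical duct keratin, had normalized CPM (CPM on the library size scaled by the trimmed mean of M values, TMM) of 0.200, 0.436 and 3.04 in WT replicates 1, 2 and 3. It had 1.22, 0.685 and 0.229 in KO replicates 1, 2 and 3. WT replicate 3 lay above all other libraries and KO replicate 3 was as low as WT replicate 1, with 19 and 16 reads, so the genotypes overlapped. The KO minus WT difference was -0.78 ± 1.07 on the log2 scale (SE, n = 3 tumours in each genotype; 95% interval -3.33 to 1.77; edgeR FDR 1.00). Krt7 (ENSMUSG00000023039, chromosome 15, 101411043 to 101430313, plus strand), the type II keratin partner found in ducts, had 0.401, 0.211 and 2.08 CPM in the WT tumours and 1.23, 0.903 and 0.229 in the KO tumours. WT replicate 3 was again highest, followed by KO replicate 1, and WT replicate 2 and KO replicate 3 were lowest with 16 and 19 reads. Its log2 fold change was -0.18 ± 0.96 (edgeR FDR 1.00). The antisense gene Gm671 shares 77 exon bases with Krt7 in GENCODE, and whether the counting used strand is not stated. No gene of the name Gm671 was among those deposited.

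Krt23 (ENSMUSG00000006777, chromosome 11, 99477974 to 99493137, minus strand), a type I keratin reported as stress-induced in the ductular reaction, ranked the tumours of both genotypes together otherwise than Krt19 and Krt7. Within each genotype, Krt23 ordered the tumours as Krt7 did. It had 2.13, 0.621 and 10.5 CPM in WT replicates 1, 2 and 3, and 30.4, 13.2 and 10.5 in the KO replicates. The highest WT library (10.47) and the lowest KO library (10.51) had overlapping 95% counting intervals, 9.80 to 11.2 and 9.82 to 11.2. With scaling by relative log expression in place of TMM, WT replicate 3 was the higher of the pair, at 10.53 against 10.52, so the genotypes overlapped. They did not overlap with upper-quartile factors (10.2 against 10.7), without factors (9.72 against 11.4) or on the deposited RPKM scale (5.48 against 6.42). The log2 fold change of 2.03 ± 0.98 (95% interval -0.32 to 4.38) had the smallest p among the members, 0.0797 unadjusted by edgeR, and did not pass (FDR 1.00). It was 3.71 without WT replicate 3 (edgeR FDR 0.425) and 1.44 without KO replicate 1.

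The surface proteins Epcam and Cldn7 followed the duct keratins. Epcam (ENSMUSG00000045394, chromosome 17, 87635979 to 87651106, plus strand), an adhesion molecule of biliary and progenitor epithelium, had 0.701, 0.753 and 4.29 CPM in the WT tumours and 3.28, 1.10 and 0.205 in the KO tumours. KO replicates thus ranged from near the highest library down to the lowest, a 20.9-fold span over all 6. Its log2 fold change was -0.33 ± 1.08 (edgeR FDR 1.00). Cldn7 (ENSMUSG00000018569, chromosome 11, 69964779 to 69967885, plus strand), a tight junction claudin that binds EPCAM, had 0.426, 0.264 and 1.29 CPM in the WT tumours and 2.26, 0.527 and 0.314 in the KO tumours. KO replicate 1 was the highest library here and the other KO libraries lay within the WT range (0.64 ± 0.91, edgeR FDR 1.00).

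The apical genes Muc1 and Cftr had the lowest counts in KO replicate 3. Muc1 (ENSMUSG00000042784, chromosome 3, 89229057 to 89233381, plus strand), a membrane mucin of the luminal surface, had 0.463, 0.489 and 2.68 CPM in the WT tumours and 1.51, 0.910 and 0.145 in the KO tumours. The KO libraries lay on both sides of WT replicates 1 and 2 (-0.50 ± 0.99, edgeR FDR 1.00). Cftr (ENSMUSG00000041301, chromosome 6, 18170687 to 18322768, plus strand), the chloride channel that drives bicarbonate-rich ductal secretion, had 10, 18 and 146 reads in WT and 80, 51 and 0 in KO. These are 0.125, 0.238 and 1.64 CPM in the WT tumours and 0.760, 0.384 and 0 in the KO tumours. The 0 in KO replicate 3 allows up to 3 reads, or 0.0362 CPM, so WT replicate 3 was at least 45.3-fold higher and KO replicate 1 at least 20.99-fold higher than that library. The genotype difference was -0.80 ± 1.43 (edgeR FDR 1.00), the widest error among the members. An antisense gene, Gm15592, shares 129 exon bases with Cftr and had 0 to 4 reads per library.

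Sox9 (ENSMUSG00000000567, chromosome 11, 112782224 to 112787760, plus strand), the transcription factor of the biliary lineage, was the steadiest member. It had 9.69, 8.55 and 13.1 CPM in the WT tumours and 14.2, 4.37 and 5.92 in the KO tumours, a 3.24-fold span. KO replicates 2 and 3 were below every WT library and KO replicate 1 was above them all. The log2 fold change was -0.36 ± 0.46 with a 95% interval of -1.45 to 0.73 (edgeR FDR 1.00). Without KO replicate 1 it was -1.01 (edgeR FDR 1.00), and without KO replicate 2 it was -0.05.

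Spp1 (ENSMUSG00000029304, chromosome 5, 104435118 to 104441050, plus strand), which encodes osteopontin, a secreted phosphoprotein that binds integrins and CD44, was the most abundant member by far. It had 68.9, 28.8 and 457 CPM in the WT tumours and 413, 67.9 and 465 in the KO tumours. The libraries formed a high set (WT replicate 3, KO replicates 1 and 3) and a low set (WT replicates 1 and 2, KO replicate 2), each holding both genotypes. The log2 fold change was 0.77 ± 1.10 (edgeR FDR 1.00), and 2.69 without WT replicate 3 (edgeR FDR 0.499). The gene Gm42793 shares 309 exon bases with Spp1 on the same strand in GENCODE. No gene of that name was among those deposited, and how reads there were counted is not known.

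**Figure D2:**
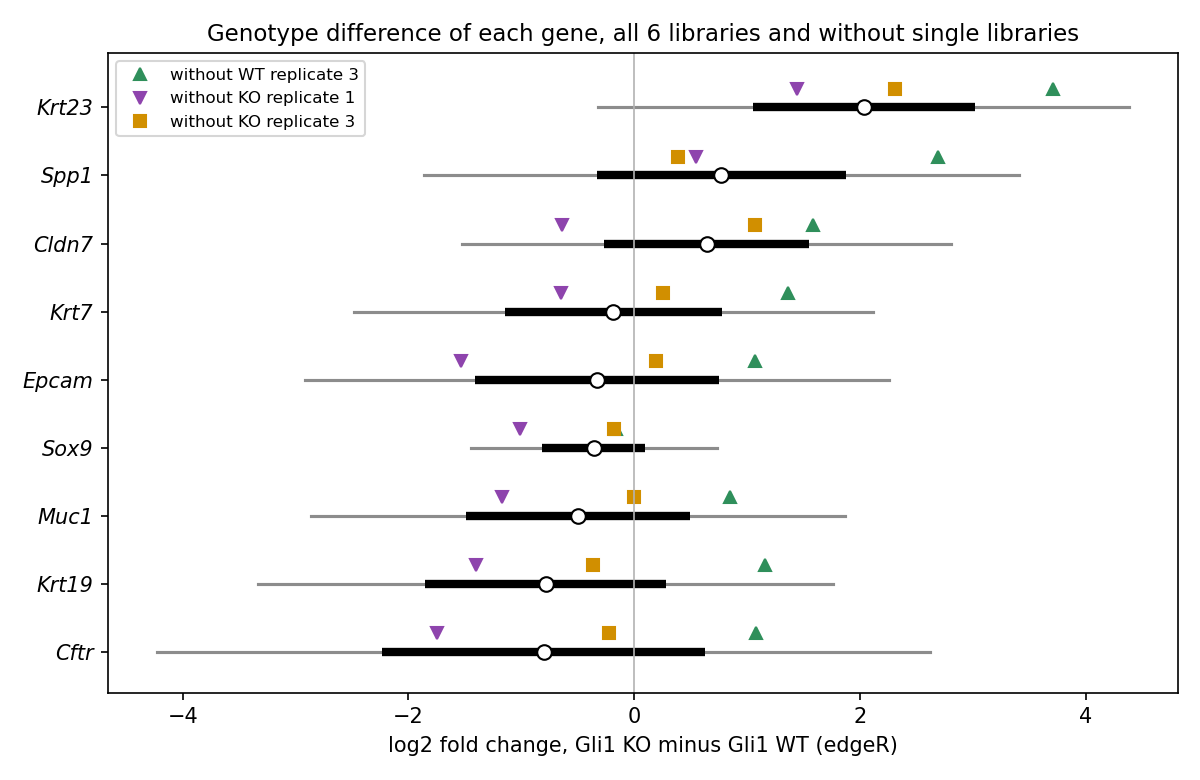
Log2 fold change (KO minus WT, edgeR) of each gene over all 6 libraries (open circles), with 1 standard error (black) and the 95% interval (grey), and the value without WT replicate 3, KO replicate 1 or KO replicate 3 (coloured symbols). Every interval includes 0, and without WT replicate 3, 8 of the 9 genes lie above 0.

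The sign changed for 6 of the 9 members when single tumours were left out. Without WT replicate 3, 8 of the 9 log2 fold changes were positive and their median was 1.16. Without KO replicate 1, 7 were negative and the median was -1.01. Without KO replicate 3, 6 were positive (median 0.19). With WT replicate 3 and KO replicate 1 both left out, 7 were positive (median 0.29). The members passing FDR 0.05 numbered 0 in each of these fits. At an unadjusted edgeR p under 0.05 there were 2 members without WT replicate 3 (Krt23 and Spp1), beside 9.47% of all genes in that fit, and 1 without KO replicate 1 (Sox9), beside 2.76%. There were 0 without KO replicate 3, beside 2.66%, and 2 without both WT replicate 3 and KO replicate 1 (Krt23 and Sox9), beside 6.84%. Krt23 and Spp1 kept a positive value and Sox9 a negative one in all alternatives tried.

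The spread between tumours of one genotype was far wider for these genes than for most. The within-genotype SD of log2 CPM had a median of 0.38 over all genes kept. It was 0.66 for Sox9, at the 75.2th percentile. The other 8 members lay above the 90th percentile, from 1.29 for Cldn7 (93.5th) to 2.35 for Cftr (99.2th). For the 6 members that stayed under 5 CPM in every library, at 0 to 382 reads, the part of counting error in this spread was not tested. Spp1, with 2181 reads in its lowest library, had an SD of 1.81 (97.7th percentile).

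Krt19, Krt7, Epcam, Muc1 and Cftr shared an order of tumours, with WT replicate 3 highest, then KO replicate 1, then KO replicate 2. This order was found for 5 of the 9 members and for 3.89% of all genes kept. Cldn7 had the same upper trio with KO replicate 1 first. In either order, WT replicate 3 and KO replicate 1 were the highest pair for 7 members, all but Krt23 and Spp1, and for 15.0% of all genes kept. The order cuts across genotype, and the pair is the same that stood apart on the first principal component. It was noticed after the values were seen, and no test was made of it.

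KO replicate 3 set Spp1 apart from the duct genes. It had the highest Spp1 of all libraries and the lowest Epcam, Muc1 and Cftr. The ratio of Spp1 to Krt19 reads, which is free of scaling between libraries, was 2028 in KO replicate 3 (95% exact binomial interval 1299 to 3369). In the other libraries it lay between 66.1 in WT replicate 2 and 344 in WT replicate 1. The ratio of Krt23 to Krt19 reads was 10.6, 1.42 and 3.45 in WT replicates 1, 2 and 3 and 25.01, 19.3 and 45.8 in the KO replicates. Krt23 per Epcam was 3.04, 0.825 and 2.44 in WT and 9.28, 12.0 and 51.2 in KO. In both ratios all KO tumours lay above all WT tumours. Both have Krt23 as numerator, the only member whose genotypes did not overlap with TMM scaling. The share of other gene pairs so placed was not computed. The ratios tried without Krt23 all overlapped between genotypes. Sox9 per Krt19, for example, was 48.4, 19.6 and 4.33 in WT and 11.7, 6.38 and 25.8 in KO. The counting intervals of the nearest WT and KO tumours, 6.36 to 19.0 in WT replicate 1 and 15.6 to 24.1 in KO replicate 2, overlapped for Krt23 per Krt19, and for Krt23 per Epcam those of WT replicate 1 (2.23 to 4.18) and KO replicate 1 (8.30 to 10.4) did not. The ratios were chosen with the counts known and are given as a description. Epcam per Krt19 stayed within 0.895 to 3.50.

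**Figure D3:**
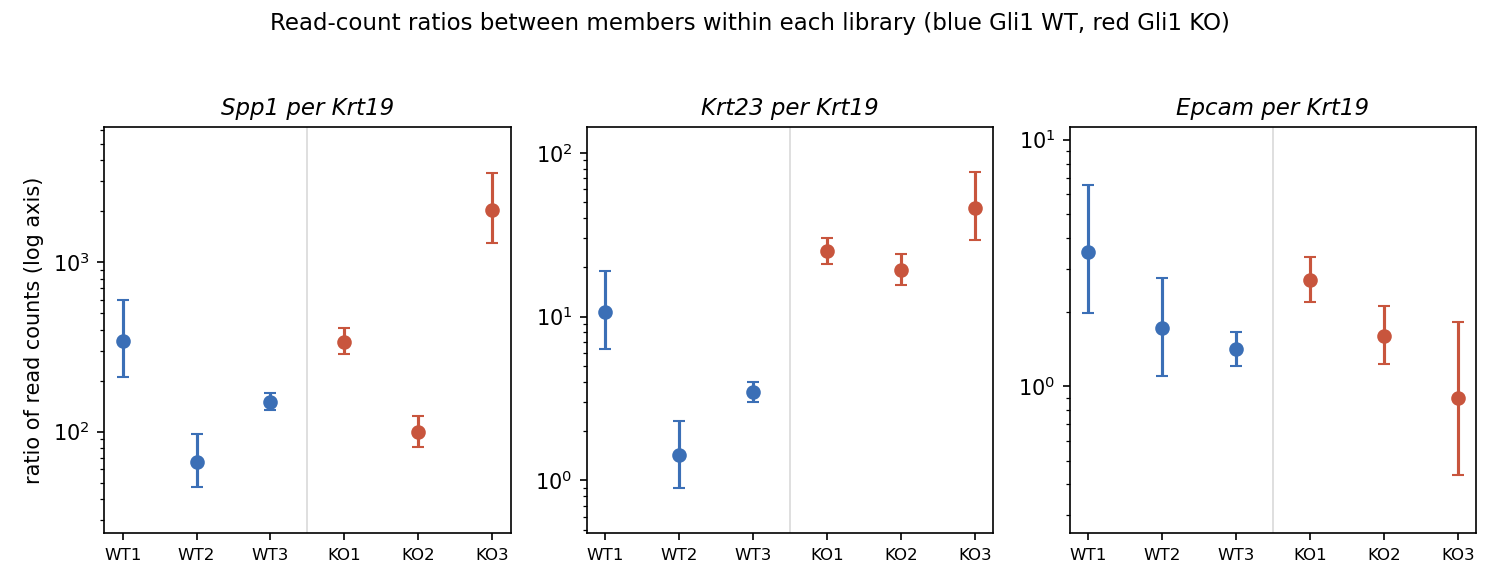
Ratios of read counts within each library (log axes), Spp1, Krt23 and Epcam each divided by Krt19, with 95% exact binomial intervals (counting error only); WT in blue, KO in red. Spp1 per Krt19 peaks at 2028 in KO replicate 3, Krt23 per Krt19 is 19.3 to 45.8 in KO against 1.42 to 10.6 in WT, and Epcam per Krt19 stays between 0.895 and 3.50.

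Other genes of the biliary and progenitor programme gave no genotype call either. Among transcription factors of the biliary lineage, 0 of 10 passed FDR 0.05 (3 positive, 7 negative, median -0.20), and 0 had an unadjusted edgeR p under 0.05, beside 3.62% of all genes. Onecut2 (-1.68 ± 0.77) and Onecut1 (-0.98 ± 0.47), which pattern the embryonic bile ducts, had the smallest p. Onecut2 had 25.3, 65.5 and 106 CPM in the WT tumours and 34.8, 21.5 and 4.87 in the KO tumours. Ehf, an epithelial ETS factor, had 3.42 CPM in WT replicate 3, 2.77 in KO replicate 1 and 0.338 to 0.925 elsewhere. For 3 of the 10 factors WT replicate 3 and KO replicate 1 were the highest pair, beside 15.0% of all genes kept.

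Of 12 bile duct transport and secretion genes kept (14 listed), 0 passed FDR 0.05, 5 were positive and 7 negative (median -0.01). For 3 of the 12, WT replicate 3 and KO replicate 1 were the highest pair, beside 15.0% of all genes kept. The water channel Aqp1 was the 1 gene with an unadjusted edgeR p under 0.05 and lower in KO, as were 2.02% of all genes. It had 86.5, 67.8 and 64.1 CPM in the WT tumours and 36.9, 45.1 and 42.6 in the KO tumours (-0.81 ± 0.18, edgeR FDR 1.00). Every KO library lay below every WT library. Aqp1 is also expressed by endothelium, and in the same tumours endothelial markers had 6 of 8 negative values. Of the 8, 4 had all KO below all WT, where 3.96% of all genes were so placed. The 2 positive ones were Pecam1 (0.01 ± 0.32) and Cdh5 (0.07 ± 0.29). The summed level of the endothelial list was 226 to 267 CPM among the WT tumours and 150 to 191 among the KO tumours. The part of endothelium in the Aqp1 value was not tested. Anxa13, a membrane-binding annexin of polarised epithelium, had 9.09 CPM in WT replicate 3 and 0.539 to 1.57 elsewhere (-1.79 ± 1.08, and 0.50 without that library).

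Epithelial keratin, adhesion and junction genes had 7 positive and 7 negative values among 14 kept of 15, with 0 past FDR 0.05 and a median of -0.01. Cldn3, a claudin shared by hepatocytes and ducts, had 57.2, 37.3 and 32.1 CPM in the WT tumours and 63.1, 58.3 and 57.6 in the KO tumours (0.50 ± 0.24, edgeR FDR 1.00). Its KO tumours all lay above its WT tumours, as for 4.15% of all genes. F11r, a junctional adhesion molecule, had 0.25 ± 0.22. WT replicate 3 and KO replicate 1 were the highest pair for 12 of the 14, beside 15.0% of all genes kept. Krt20, an intestinal-type keratin, had 21.6 and 15.5 CPM in those libraries and 0.125 to 1.23 in the other 4. Tspan8, a tetraspanin of epithelial tumours, had 217 and 256 against 8.02 to 43.7, and the protease gene St14 had 4.17 and 2.34 against 0.205 to 1.41. The hepatocyte keratins spanned less, with 459 and 266 CPM of Krt8 and 443 and 333 of Krt18 against 132 to 259 and 121 to 204.

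Polycystin and duct morphology genes had 5 of 7 positive (median 0.08), with 0 past FDR 0.05. For 3 of the 7, WT replicate 3 and KO replicate 1 were the highest pair. Cys1, which encodes the ciliary protein cystin, had 7.04, 3.57 and 5.17 CPM in the WT tumours and 9.05, 9.31 and 18.3 in the KO tumours (1.21 ± 0.38, edgeR FDR 1.00). Its KO tumours all lay above its WT tumours, as for 4.15% of all genes. The immune ligand Vtcn1 had -1.34 ± 1.09. Progenitor and ductular reaction genes had 6 positive and 6 negative among 12 kept of 13 (median 0.13), with 0 past FDR 0.05. Ncam1, an adhesion molecule of reactive ductules, had 1.78 ± 0.85 and stayed under 1 CPM. It was highest in KO replicate 1, at 0.978 CPM, and its log2 fold change was 0.67 without that library. The fetal albumin relative Afp had 274 CPM in KO replicate 1, 52.8 in WT replicate 3 and 5.198 to 23.6 elsewhere, with a log2 fold change of 2.30 ± 1.43, and -0.18 without KO replicate 1. WT replicate 3 and KO replicate 1 were the highest pair for 8 of the 12 progenitor genes, beside 15.0% of all genes kept. Prom1, a membrane protein of progenitor cells, was among the 8, with 45.8 and 44.7 CPM against 1.60 to 17.6. So was the lipocalin Lcn2, with 660 and 503 against 70.3 to 188. Krt20, Tspan8, St14, Alb, Hnf4a, Gpnmb, Trem2, Krt8, Krt18, Ehf, Prom1, Lcn2, Pecam1 and Cdh5 were chosen for description after their values were seen.

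**Figure D4:**
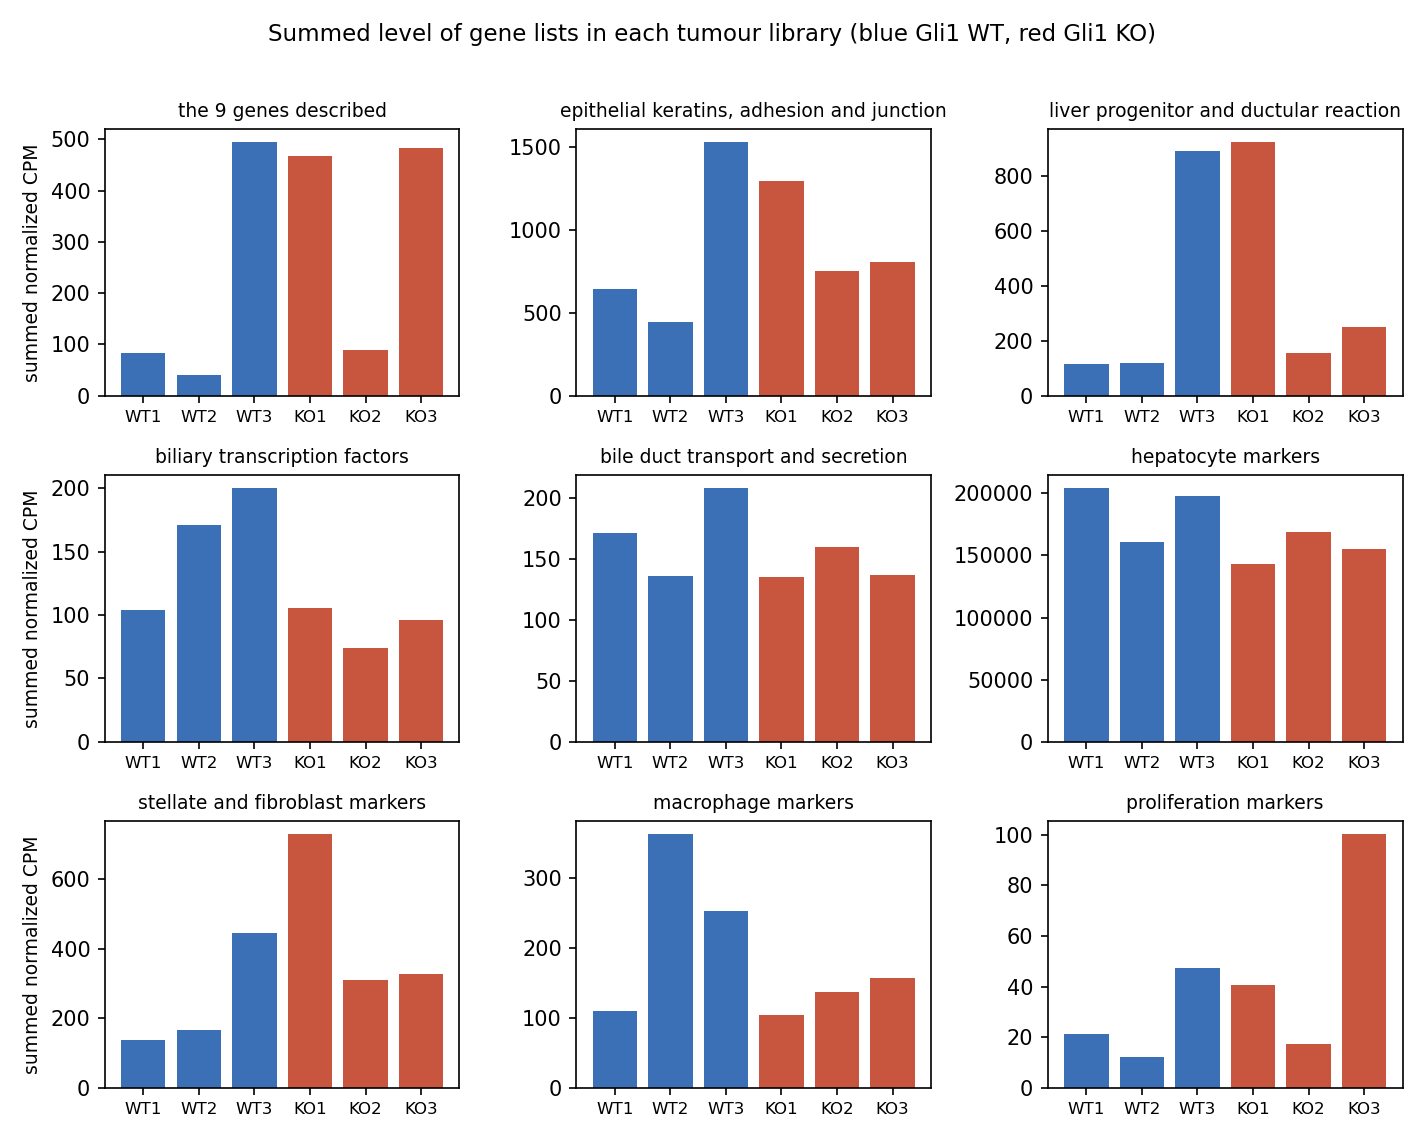
Summed normalized CPM (linear axes from 0) of the 9 genes and of 8 other gene lists in each library, WT in blue and KO in red. The sum of the 9 genes, which is mostly Spp1, is high in WT replicate 3, KO replicate 1 and KO replicate 3, whereas the epithelial and progenitor lists are high in the first pair. These 2 sums also rest on few genes. In WT replicate 3, Krt8 and Krt18 gave 459 and 443 of 1533 CPM of the epithelial list, and Lcn2 gave 660 of 889 CPM of the progenitor list. In KO replicate 1, Lcn2 and Afp gave 503 and 274 of 923 CPM of the progenitor list.

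Markers of other cells were set beside these patterns. Hepatocyte markers had 1 of 12 positive and summed to 160475 to 204345 CPM over the WT tumours and 143235 to 168593 over the KO tumours. Most of each sum was Alb, at 114643 to 167494 CPM. Hnf4a, a master regulator of hepatocytes, had 455 to 727 CPM in all tumours. Not every gene of the list was as steady. Cyp2e1, which had the smallest p of the list, ran from 391 CPM in WT replicate 3 to 5294 in WT replicate 2. Stellate and fibroblast markers had 9 of 10 positive (median 0.84) and summed to 138, 166 and 446 CPM in the WT tumours and 730, 309 and 327 in the KO tumours. Their sum was thus highest in KO replicate 1 and WT replicate 3, the libraries with most Epcam and Krt19. For 4 of the 10 genes these libraries were the highest pair, beside 15.0% of all genes kept. The part of stellate cells and fibroblasts in that order was not tested. The defining mesothelial genes Upk3b and Wt1 had at most 28 and 12 reads, in WT replicate 2, and Msln had at most 50, in WT replicate 3. Of the 7 mesothelial genes, 3 were kept, 2 of them positive, and the list summed to 2.72 to 48.5 CPM, of which 1.95 to 46.3 CPM was Slpi, a protease inhibitor of many epithelia. Pancreatic acinar markers had 0 of 7 kept genes positive (8 listed) and summed to 25.5 to 160.2 CPM, highest in WT replicate 1. T and NK cell, B and plasma cell and neutrophil markers had 0 of 8, 1 of 6 and 0 of 5 positive, and their sums lay between 2.08 and 60.8 CPM. All KO tumours lay below all WT tumours for 4 of 8 T and NK cell and 2 of 6 B and plasma cell markers. The same held for 2 of 5 neutrophil and 2 of 12 macrophage markers kept, beside 3.96% of all genes. Of all these marker lists, macrophage, endothelial and proliferation markers included, 0 genes passed edgeR's FDR 0.05. DESeq2 called 1 of them, the neutrophil gene Retnlg (adjusted p = 4.50e-08), which had 1.55, 1.63 and 2.62 CPM in the WT tumours and 0.304, 0.324 and 0.290 in the KO tumours (edgeR -2.65 ± 0.36, FDR 0.739).

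Macrophages also make osteopontin, so macrophage markers were set beside Spp1. They had 3 of 12 positive (median -0.79) and summed to 110, 363 and 252 CPM in the WT tumours and 104, 137 and 158 in the KO tumours. WT replicate 2, with the highest sum, had the lowest Spp1. Of the markers of lipid-laden macrophages in the list, Gpnmb had 0.0877, 0.555 and 1.02 CPM in the WT tumours and 2.33, 0.707 and 2.99 in the KO tumours. Trem2 had 0.726, 0.528 and 2.08 in WT and 1.43, 2.26 and 2.11 in KO. The 3 libraries highest in Gpnmb were also the 3 highest in Spp1. Trem2 did not share this order, being highest in KO replicate 2, a library of the low Spp1 set (67.9 CPM). Proliferation markers summed to 100 CPM in KO replicate 3, 47.5 in WT replicate 3 and 40.8 in KO replicate 1, against 12.3 to 21.2 in the other 3 tumours, the same split as for Spp1. The part of either list in the Spp1 level was not tested.

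The genes most like each member over the 6 libraries were sought among 13872 or 13873 genes with a mean of at least 1 CPM, by Pearson's r of log2 CPM. For Epcam they were Kif5c (0.996), Muc1 (0.987) and Ehf (0.986), and for Muc1 they were St14 (0.998), Gm27624 and Ifi203 (both 0.995). For Krt19 they were Arrb1, Far1 and Nufip2 (0.995 to 0.996). For Krt23 they were Mboat7, Rasl12 and Anxa4 (0.990 to 0.997), and for Spp1 Mtmr7, Tpx2 and Ccr2 (0.991 to 0.995). For Krt7 they were Arap2, Pik3ca and Ptpn12 (0.995 to 0.998), for Cldn7 Fam171a1, Slc1a5 and Lrig1 (0.994 to 0.996) and for Cftr Ifi203, Csnk2a2 and Ddx19b (0.988 to 0.994). Sox9 had the lowest values, with Fkbp9, Rpl18 and Tmem87a (0.976 to 0.985). Of the genes compared, 78 genes exceeded 0.95 with Epcam, 132 with Krt19 and 74 with Spp1. These values describe 6 libraries that share their scaling, and no p is given.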

How the data were processed

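The authors deposited 1 table with raw read counts and RPKM values for each gene and library. The tools named are HTSeq, bcl2fastq and TopHat2 2.0.6, per the submitters' processing notes, which also name the human builds hg19 and GRCh37 and give no roles. Per the file headers the gene identifiers are mouse Ensembl identifiers, and the starts of 9 of 9 and ends of 8 of 9 members equal those of GENCODE M21, so coordinates are read as GRCm38. The deposited RPKM values, divided by the gene length of the table, served only to rank levels between genes. All value columns were matched to samples.

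The quasi-likelihood test of edgeR 4.0.16 (R 4.3.3) was run on the deposited counts (filterByExpr, TMM factors, robust, two-sided, Benjamini-Hochberg over 18359 genes, FDR 0.05). Errors are standard errors, and the 95% intervals use edgeR's moderated degrees of freedom. Gli1 did not pass the filter and was put back to obtain its value. Normalized CPM use the TMM-scaled library size, and log2 CPM a prior count of 2. Poisson and binomial intervals cover counting error only. Tried besides were DESeq2 1.42.0, voom of limma 3.58.1, scaling by RLE or the upper quartile, other filters, a replicate block, a covariate for sample label numbers under 2000, robust estimation switched off, the 10 genes with most counts taken out, FDR 0.1 and leaving out libraries. No pair of libraries was identical (0 pairs). Tested on simulated data of 18359 genes for KO versus WT, the edgeR fit found 4.48% of the 2-fold changes, 58.2% at 4-fold and 77.3% at 8-fold. False calls made up 11.4% of all its calls. The changed genes were drawn at random from all 18359. Of the members, 8 lay above the 90th percentile of within-genotype SD, so these shares need not hold for the members.

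The members and gene lists were chosen with earlier results of these data known. Named are all members, Gli1, Sulf2 and the 2 genes of smallest p in each biliary or progenitor list. Genes that the rule named from lists of other cell types are not all reported here. The motifs, the read ratios, the order of tumours, the comparison of Krt23 between scalings and the genes outside the rule were chosen after values were seen, those genes also after their values under the alternatives. A gene of the lists, and motif searches related to it, are not reported here.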

Additional observations from a re-analysis of the deposited data

How the results depend on the processing

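The count of members past FDR 0.05 was 0 in all 18 alternatives run. Over all genes the count was 0 in 17 of them and 62 by DESeq2 (0.317% of the 19548 genes given an adjusted p), with 0 members among them. Leaving out each library in turn kept both counts at 0 and moved the median log2 fold change of the members from -0.33 to between -1.01 and 1.16, the latter without WT replicate 3. With a CPM of at least 1 in 3 libraries only 4 members were tested, so no median was given. The replicate numbers were not shown to pair the tumours, since the deviations of same-numbered libraries correlated at -0.29, 0.18 and -0.34 over 18359 genes. With the block by replicate number 0 genes were called and the median of the members was 0.08. With the replicate block, the sign changed for Krt19 (0.081), Krt7 (0.47), Krt8 (0.21), Krt18 (0.040), Krt20 (1.21), St14 (0.0024), Lcn2 (0.14). With voom, the sign changed for Krt7 (0.19), Sulf2 (-0.038), Krt8 (0.22), Krt18 (0.027), Krt20 (1.17), Lcn2 (0.27). With the label-number covariate, the sign changed for Krt19 (0.19), Krt7 (0.25), Epcam (0.043), Muc1 (0.0061), Cftr (0.076), Sulf2 (-0.74), Ehf (0.049), Krt8 (0.18), Krt20 (0.45), St14 (0.14), Vtcn1 (0.19). Without WT replicate 3 and KO replicate 1 together, the sign changed for Krt19 (0.54), Krt7 (0.90), Muc1 (0.17), Cftr (0.14), Sulf2 (-2.78), Anxa13 (0.044), Krt8 (0.72), Krt18 (0.19), Krt20 (2.42), St14 (0.32), Lcn2 (0.71). Leaving out 1 library at a time also changed signs, with ranges of -1.40 to 1.16 for Krt19, -0.65 to 1.37 for Krt7, -1.54 to 1.07 for Epcam, -0.64 to 1.58 for Cldn7, -1.18 to 0.85 for Muc1, -1.75 to 1.08 for Cftr, -2.27 to 2.81 for Sulf2, -1.30 to 1.05 for Ehf, -2.30 to 0.50 for Anxa13, -0.33 to 0.79 for Krt8, -0.47 to 0.53 for Krt18, -3.12 to 5.19 for Krt20, -1.16 to 1.01 for St14, -1.24 to 2.82 for Tspan8, -0.18 to 4.31 for Afp, -0.27 to 2.97 for Prom1, -1.06 to 1.68 for Lcn2. Krt23, Spp1 and Sox9 kept their signs in all 17 alternatives run for each. The cause of these changes was not tested. The smallest FDR of a member in any fit was 0.425, for Krt23 without WT replicate 3.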
